A study of Mus musculus with 24 samples.

Results

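The motile cilium genes of ependymal cells were followed in 2 cortical areas, the anterior cingulate cortex (ACC) and the medial prefrontal cortex (mPFC), of mice with or without a nerve injury. The list holds 37 genes, all of them protein coding and all found by Ensembl identifier among the 33364 genes counted. The rule was a list of gene names of axonemal and ependymal role, and the list was drawn up with earlier results of these data known. RNA came from C57BL/6 mice (C57BL/6J in the methods of the study) of 3 months of either sex, 2 weeks after spared nerve injury (SNI) or a sham operation. In SNI the common peroneal and sural branches of the sciatic nerve are tied and cut and the tibial branch is spared, which leaves a lasting neuropathic pain. The 8 groups (female or male, sham or SNI, mPFC or ACC) had 3 libraries each, 24 in all. Each library was a pool of tissue punched from slices of 4 to 5 animals, so the spread between libraries is smaller than that between single animals. The punches were bulk tissue, and in such samples fewer cells of a type and less RNA per cell cannot be told apart.

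Motile cilia are hair-like organelles that beat. Their core, the axoneme, is a ring of microtubule doublets around a central pair, moved by outer and inner dynein arms and held in register by radial spokes, nexin links and a molecular ruler. In the brain they are carried in tufts by ependymal cells, the lining of the ventricles, where they move the cerebrospinal fluid. Cells of the neocortex itself carry a single primary cilium, which does not beat. Foxj1 is the transcription factor that switches on the motile program in multiciliated cells, and the RFX factors, which bind the X-box motif, act with it on many of its targets.

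To show the upstream sequence of some members, promoters were read from RefSeq on GRCm38.p6, the same assembly as the GRCm38 build of the counts. Entries were found for 31 of the 37 genes. The letters GTTGCC, the core of an X-box arm, were searched on both strands in the 250 bases before each start. They were present for 12 of the 31 members (38.7%) and for 3195 of 27025 genes (11.8%), each gene with several starts being counted once. The 7 stretches below were chosen to show members with a region difference (Ccdc153, Cfap44, Dnah10, Dnah7a and Hydin) beside members without one (Drc1 and Enkur). They are written 5′ to 3′ on the strand of the gene with the match, in either orientation, in capitals.
Ccdc153, chr9:44240495-44240560, plus strand: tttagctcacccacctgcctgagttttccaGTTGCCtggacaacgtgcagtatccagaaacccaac
Cfap44, chr16:44394640-44394795, plus strand: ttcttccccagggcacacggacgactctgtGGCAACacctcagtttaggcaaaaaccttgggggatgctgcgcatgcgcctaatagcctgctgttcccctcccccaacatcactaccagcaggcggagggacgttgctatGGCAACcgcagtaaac
Dnah10, chr5:124725035-124725084, plus strand: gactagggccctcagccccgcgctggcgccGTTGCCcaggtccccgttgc
Dnah7a, chr1:53706949-53707014, minus strand: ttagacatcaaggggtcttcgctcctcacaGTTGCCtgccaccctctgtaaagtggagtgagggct
Hydin, chr8:110266934-110266976, plus strand: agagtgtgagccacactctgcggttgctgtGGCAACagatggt
Drc1, chr5:30281352-30281387, plus strand: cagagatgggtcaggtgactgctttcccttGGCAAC
Enkur, chr2:21205366-21205429, minus strand: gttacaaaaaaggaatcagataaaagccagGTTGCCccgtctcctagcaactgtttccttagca

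The core matched in 6 of the 19 members (31.6%) that were higher in the mPFC in at least 1 comparison described further on, and in 6 of the other 12 (50%). A fuller X-box, GTNNCC and GGNNAC separated by 0 to 3 bases, was found for 4 of 31 members (12.9%) and for 3.66% of all genes. The box of Pifo, 1 of those 4, contains its GTTGCC match, so these 2 searches overlap there. The forkhead letters TGTTTAC were found for 2 of 31 members (6.45%) against 3.54% of all genes.

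The members were expressed at low levels in both cortices. Levels are given as CPM, the reads of a gene scaled to the same library size for every library, after TMM scaling, a correction for library composition. Over the 24 libraries 16 of the 37 members had a mean under 1 CPM: Dnah11, Armc4, Dnah3, Dnah7a, Dnah12, Spag17, Cfap43, Tekt1, Tekt4, Ak7, Cfap126, Pifo, Meig1, Ccdc153, Tmem212 and Mia. Of these, Spag17, Armc4, Pifo, Tekt4, Cfap126, Tmem212, Mia and Meig1, 8 in all, were under 1 CPM in every library. The 12 members at 1 CPM or more in every library were Drc1, Ccdc39, Dnah5, Dnah1, Lrrc6, Dnah9, Foxj1, Dnah7b, Dnah2, Spag6, Enkur and Dnaic1. The 3 nearest below the mark were Dnah7a (mean 0.962 CPM), Cfap43 (0.932) and Tekt1 (0.855), and the 3 nearest above it were Ccdc40 (1.16), Dnah10 (1.23) and Dnaic2 (1.28).

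By region, 14 members had a mean under 1 CPM in the 12 mPFC libraries and 20 in the 12 ACC libraries. The 6 that crossed the mark between regions were Dnah6, Dnah7a, Dnah10, Hydin, Cfap43 and Ccdc40, all above it in the mPFC. A single mPFC library held 20 to 28 members at 1 CPM or more, with a median of 23.5, and a single ACC library 14 to 23, with a median of 16. Counts of 3 or fewer, taken as the floor of detection, were reached in at least 1 library by 11 members, and 6 of these had no read at all in some library. That floor corresponds to 0.0913 to 0.126 CPM, since between 23853845 and 32864391 reads were counted per library (median 26727282).

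Per length, the highest levels were those of Drc1, a subunit of the nexin link (4.70 CPM per kb of exon), the dynein arm assembly factor Lrrc6 (3.00), Ccdc39 of the molecular ruler (1.64) and Foxj1 (1.49). The lowest were those of the central pair gene Spag17 (0.0205 CPM per kb) and of the dynein heavy chains Dnah11 (0.0298), Dnah3 (0.0351) and Dnah12 (0.0361). These 4 are all long genes.

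**Figure D1:**
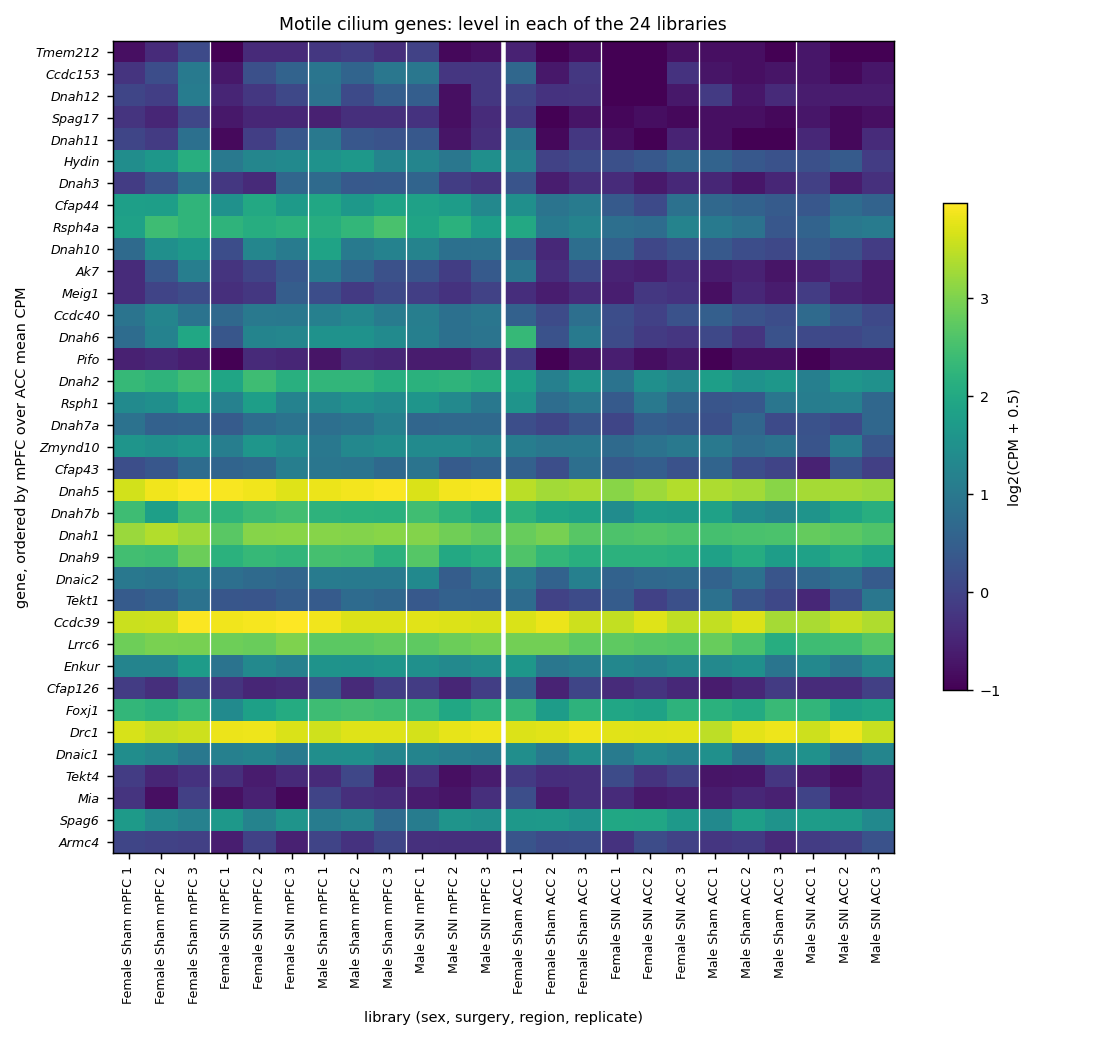
Level of the 37 motile cilium genes (rows, ordered by the ratio of mean CPM in the mPFC to that in the ACC) in the 24 libraries (columns, mPFC to the left of the broad white line), as log2(CPM + 0.5). The upper rows, from Tmem212 to Dnah6, are brighter in most mPFC libraries and in female sham ACC library 1, while rows such as Drc1, Ccdc39 and Lrrc6 differ little over the libraries.

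The members differed in how much they varied. Drc1 ranged over 280 to 401 reads across the 24 libraries, and its highest CPM was 1.30 times its lowest. Dnaic1, an intermediate chain of the outer arm, ranged over 36 to 63 reads, and Ccdc39 over 251 to 428. Dnah6, by contrast, ranged over 9 to 113 reads (12.8 times in CPM), Dnah10 over 6 to 87 (13.2 times) and Ak7, an adenylate kinase of cilia, over 3 to 42 (15.4 times). Ccdc153 ranged over 0 to 48 reads, Dnah11 over 0 to 41 and Dnah12 over 0 to 39.

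The remaining members are given by the range of their reads over the 24 libraries. Among the dynein heavy chains Dnah5 had 217 to 411 reads, Dnah1 133 to 272, Dnah9 79 to 192, Dnah7b 52 to 165, Dnah2 41 to 133, Dnah7a 13 to 47 and Dnah3 3 to 34. Dnaic2 and the docking factor Armc4, also of the outer arm, had 20 to 68 and 4 to 18, and the assembly factors Lrrc6 and Zmynd10 102 to 206 and 19 to 69. In the spokes and central pair Rsph4a had 21 to 143, Rsph1 20 to 83, Hydin 11 to 93, Spag6 31 to 102 and Spag17 0 to 13, so Spag17 was the least read of these. Ccdc40 had 14 to 56, and of the genes placed on or near the doublets Cfap44 had 17 to 103, Enkur 32 to 77, Cfap43 5 to 46, Tekt1 6 to 38 and Tekt4 2 to 18. Foxj1 had 50 to 148 reads. The other ciliary genes Cfap126, Meig1 and Pifo had 4 to 24, 2 to 24 and 0 to 10, and the ependymal genes Tmem212 and Mia 0 to 16 and 1 to 16, all of them low in every library.

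The 2 libraries in which both Ccdc153 and Tmem212, used as ependymal markers in atlases of brain cells, had no read were female SNI ACC libraries 1 and 2. In them Drc1 still had 385 and 374 reads, Ccdc39 326 and 374, Foxj1 100 and 92 and Spag6 102 and 97. Both markers were near the floor in the ACC at large, with medians of 1 read for Tmem212 and 3 for Ccdc153, and the cells these reads came from were not tested.

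Several libraries stand apart and touch what follows. The 2 that differed most from the others of their group over all genes were female sham mPFC library 3 (chi-square per gene of 13.7 and 14) and male sham ACC library 3 (17.3 and 19.9), against 2.67 to 10.6 for the 20 other pairs. Female sham ACC library 1 held transcripts of the choroid plexus, the secretory tissue inside the ventricles. Its count of Ttr, which encodes transthyretin, was 21811, against 5 to 152 in 22 other libraries, and its 14 choroid plexus markers summed to 1090 CPM against 13.4 to 22.7 in those 22. Male SNI mPFC library 2 was the other exception, with 1975 Ttr reads and a sum of 101 CPM. Of those 14 markers, none was at 0 in all libraries, and Folr1, Otx2, Slc4a5, Kcne2 and Steap1 had median counts at the floor. Female SNI mPFC library 1 had a summed level of 1147 CPM over 12 oligodendrocyte genes, against 2057 to 4330 CPM in all the others. Neuronal markers were high in every library, at 10208 to 12147 CPM summed over 10 genes, and the sex-linked genes matched the labelled sex in all 24.

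The first comparison asked whether the members differed between the regions of sham mice. More members were higher in the mPFC than in the ACC, among them dynein heavy chains of both arms, the radial spoke gene Rsph4a, Hydin and Cfap44 in either sex, and the spoke gene Rsph1 in males. In females 31 of the 37 members had enough reads to be tested and 9 were higher in the mPFC at an adjusted p under 0.1 in edgeR's quasi-likelihood test, the rest not passing. Over all genes tested in females, 14% were called higher in the mPFC. In males 32 members were tested, 19 were higher and 1, Spag6, was lower, against 7.46% of all genes called higher and 6.70% called lower. Among the 19, Ccdc153, Dnah11, Dnah3, Ak7 and Meig1 entered only through their mPFC reads, so those calls are descriptions. The median log2 fold change of the tested members was 0.29 in females and 0.81 in males, and over all genes 0.00 and 0.01.

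SNI mice, whose libraries were not used above, gave the same comparison again. In SNI females 25 members were tested and 12 were higher in the mPFC (13.7% of all genes). In SNI males 29 were tested and 13 were higher (10.4% of all genes), with none lower in either sex. Among the SNI male calls, Ak7 (5, 8 and 4 ACC reads) entered only through its mPFC reads, so its call is a description. Cfap43 (5, 19 and 12) would not have entered on its ACC reads alone. The medians of the tested members were 0.61 in females and 0.44 in males, against 0.00 for all genes in both. The filter on low counts keeps a rare gene when it is well read in either group, which favours genes that differ. With no such filter all 37 members entered, and the numbers higher were 12 in sham females, 21 in sham males, 18 in SNI females and 15 in SNI males, where 7.82%, 4.04%, 7.96% and 6.36% of all genes were.

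Of the 25 members tested in all 4 of these comparisons, Cfap44, Dnah2, Dnah5, Hydin and Rsph4a, 5 in all, were higher in the mPFC in each, where 3.90% of all 16319 genes tested in all 4 were. A further count of at least 2 calls was reached by 14 of the 25, and by 11.6% of all genes. The fold change was above 0 in all 4 comparisons for 17 of the 25 members and for 24.7% of all genes. In females 7 members were called under both operations, which is 77.8% of the 9 called in sham and 58.3% of the 12 called in SNI. In males 9 were shared, 47.4% of 19 and 69.2% of 13, with Ak7, whose calls are descriptions, among them. Such overlaps were not computed over all genes, so these shares describe the members only.

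By role, all 8 inner arm heavy chains of the list (Dnah1, Dnah2, Dnah3, Dnah6, Dnah7a, Dnah7b, Dnah10 and Dnah12) were higher in the sham male mPFC, and 4 of them in the sham female mPFC. Of the 8, Dnah3 entered the sham male test only through its mPFC reads, so its call is a description. Dnah6 and Dnah12 would not have entered that test on their ACC reads alone. Of the 6 outer arm genes, Dnah5 was called in every comparison and Dnah9 and Dnah11 in sham males alone, while the intermediate chains Dnaic1 and Dnaic2 and the docking factor Armc4 passed in none. Among the 6 genes placed in or on the doublets, Cfap44 passed in all 4 comparisons, Ak7 in 2 and Cfap43 in 1, and Tekt1 in none. The calls of Ak7, in sham and SNI males, are descriptions, since it entered only through its mPFC reads. Foxj1, Drc1, Enkur and Cfap126 also passed in none. Spag17, Pifo, Tekt4, Tmem212 and Mia, 5 members, had too few reads to be tested between regions.

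**Figure D2:**
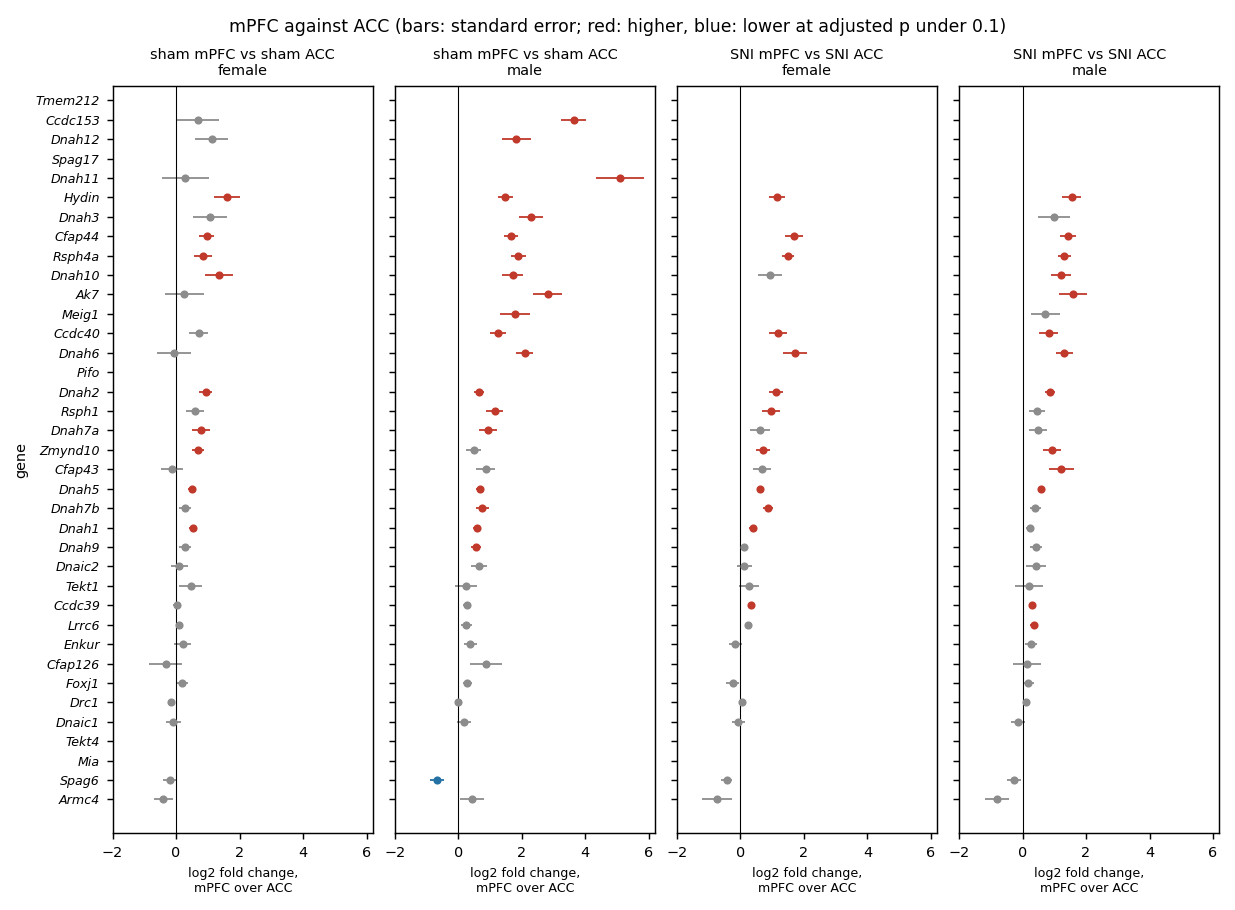
Log2 fold change of the mPFC over the ACC for each member in sham females, sham males, SNI females and SNI males, with its standard error from edgeR, on 3 libraries against 3. Red marks genes higher and blue genes lower in the mPFC at an adjusted p under 0.1, grey marks those that did not pass, and a gene with no point had too few reads to be tested. Most red points lie in the upper rows, and sham males have the most, 19.

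Dnah2, an inner arm heavy chain, and Dnah5, an outer arm heavy chain, were the only members whose 12 mPFC libraries all lay above all 12 ACC libraries in CPM, as did 1.38% of all 33364 genes and 2.82% of the 16319 tested in all 4 comparisons. Dnah5 had 310 to 411 reads in the mPFC (median 381) and 217 to 268 in the ACC (median 242.5). Its mean was 13.7 ± 1.70 CPM in the female sham mPFC against 9.74 ± 0.690 in the ACC (SD, n = 3), and its log2 fold changes were 0.50, 0.67, 0.63 and 0.57 in sham females, sham males, SNI females and SNI males. Dnah2 had 78 to 133 reads in the mPFC (median 116) and 41 to 81 in the ACC (median 64), with log2 fold changes of 0.93, 0.66, 1.13 and 0.86. Dnah5 was thus a well-read gene with a small difference, and the genes with larger differences had fewer reads.

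Rsph4a, at chr10:33905111-33916021, encodes a protein of the radial spoke head. Females had 81, 131 and 103 reads in the sham mPFC and 88, 38 and 49 in the sham ACC, then 100, 103 and 111 in the SNI mPFC and 38, 35 and 45 in the SNI ACC. Males had 102, 120 and 143 in the sham mPFC and 42, 34 and 21 in the sham ACC, then 107, 109 and 79 in the SNI mPFC and 26, 38 and 42 in the SNI ACC. The groups were apart in 3 comparisons and overlapped in sham females, where ACC library 1, the library with choroid plexus transcripts, reached the mPFC range. The log2 fold change was 0.84 ± 0.28 (SE, adjusted p = 0.0587) in sham females and 1.89 ± 0.24 (adjusted p = 0.000495) in sham males. In SNI mice it was 1.51 ± 0.19 in females (adjusted p = 0.000155) and 1.32 ± 0.21 in males (adjusted p = 0.00104). Leaving out any of 3 of the 6 sham female libraries (ACC 2, ACC 3 or mPFC 2) lost the call there (log2 fold change 0.63 to 0.69), and without ACC library 1 the value was 1.28 (adjusted p = 0.00565).

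Hydin (chr8:110266977-110610253) encodes a giant protein of the central pair. Female counts were 58, 70 and 93 in the sham mPFC against 45, 12 and 16 in the sham ACC, and 36, 52 and 56 in the SNI mPFC against 20, 23 and 26 in the SNI ACC. Male counts were 65, 72 and 50 against 27, 20 and 19 in sham mice, and 63, 40 and 61 against 17, 22 and 11 in SNI mice. No ACC library reached the mPFC libraries of its own comparison. The log2 fold changes were 1.59 ± 0.41 (adjusted p = 0.020) and 1.48 ± 0.24 (adjusted p = 0.00242) in sham females and males. They were 1.15 ± 0.26 (adjusted p = 0.00732) and 1.55 ± 0.29 (adjusted p = 0.00324) in SNI females and males, and without female sham ACC library 1 the first of these 4 values became 2.41.

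Cfap44, at chr16:44394796-44482428, encodes a protein that tethers dynein heads to the doublet. It had 79, 79 and 103 reads in the female sham mPFC and 57, 34 and 43 in the female sham ACC, and 56, 95 and 75 against 25, 17 and 32 after SNI. In males it had 92, 72 and 86 in the sham mPFC and 30, 25 and 23 in the sham ACC, and 102, 78 and 53 against 20, 31 and 26 after SNI. In every comparison the lowest mPFC library was above the highest ACC library in CPM. The log2 fold changes were 0.96 ± 0.23 (adjusted p = 0.0165) and 1.66 ± 0.21 (adjusted p = 0.000476) in sham females and males, and 1.69 ± 0.28 (adjusted p = 0.00103) and 1.42 ± 0.24 (adjusted p = 0.00169) in SNI females and males.

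Dnah6 (chr6:73017606-73221651), an inner arm heavy chain, showed how far a single library can move a member. The female sham mPFC had 31, 49 and 82 reads and the female sham ACC 113, 17 and 41, so the highest of all 24 counts was in ACC library 1. After SNI the females had 18, 51 and 52 in the mPFC against 18, 12 and 9 in the ACC. Male counts were 65, 66 and 56 against 15, 9 and 19 in sham mice, and 57, 35 and 37 against 15, 14 and 17 in SNI mice. The sham female groups overlapped and their log2 fold change was -0.07 ± 0.54 (adjusted p = 0.941), which became 0.93 (adjusted p = 0.178) without ACC library 1. The other 3 comparisons did not overlap: 2.1 ± 0.27 in sham males (adjusted p = 0.000476), 1.72 ± 0.39 in SNI females (adjusted p = 0.00742) and 1.31 ± 0.27 in SNI males (adjusted p = 0.00547).

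Ccdc153, at chr9:44240676-44247306, has a coiled coil and marks ependymal cells in mouse brain atlases. Its counts were 9, 17 and 38 in the female sham mPFC, 27, 3 and 10 in the female sham ACC, 3, 18 and 27 in the female SNI mPFC and 0, 0 and 8 in the female SNI ACC. In males they were 38, 28 and 39 in the sham mPFC against 3, 2 and 3 in the sham ACC, and 48, 10 and 10 in the SNI mPFC against 3, 1 and 3 in the SNI ACC. In both male ACC groups every library was at the floor, whereas no mPFC library of males was. Summed over libraries, the male sham mPFC held 12.9 times the level of the ACC (95% interval 6.31 to 30.7, an exact interval that covers counting error only) and the male SNI mPFC 8.73 times (4.01 to 22.5). In sham males the gene entered the test only through its mPFC reads, so its call is a description. The sham female difference did not pass (log2 fold change 0.68 ± 0.66, adjusted p = 0.494). After SNI there were too few reads for the test.

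Dnah11 (chr12:117877982-118199043) is an outer arm heavy chain. The sham males had 41, 21 and 19 reads in the mPFC against 2, 0 and 0 in the ACC, a ratio of 39.8 with a counting interval of 10.7 to 334. It too entered the test only through its mPFC reads. Without it and Ccdc153, the 2 calls with every ACC library at the floor, 17 of the 19 in sham males are left. Dnah3 (6, 3 and 6 ACC reads), Ak7 (4, 5 and 3) and Meig1 (2, 6 and 4) also entered only through mPFC reads. Their sham male calls, still counted among those 17, are descriptions too. Dnah12 (11, 3 and 7) and Dnah6 (15, 9 and 19) would not have entered on their ACC reads alone. For Dnah11 the SNI males had 26, 3 and 8 reads against 6, 1 and 7. The sham females had 14, 11 and 31 against 35, 1 and 10, and the SNI females 1, 12 and 21 against 2, 0 and 5. The groups overlapped in those 3 cases, and only sham females had enough reads for a test (log2 fold change 0.29 ± 0.73, adjusted p = 0.816). Exons of Dnah11 overlap 642 bases of Cdca7l on the other strand, and whether the counting used strand is not given in the sources used here. In all 15 of the 37 members overlap exons of another gene, 13 of them on the other strand and 2 (Cfap43 and Mia) on the same. The longest such overlaps are those of Dnah3 with Lyrm1 and Ccdc39 with Ttc14, and Dnah1, Dnah2, Dnah6, Dnah9, Dnah10, Hydin, Zmynd10 and Spag6 are also among the 13.

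**Figure D3:**
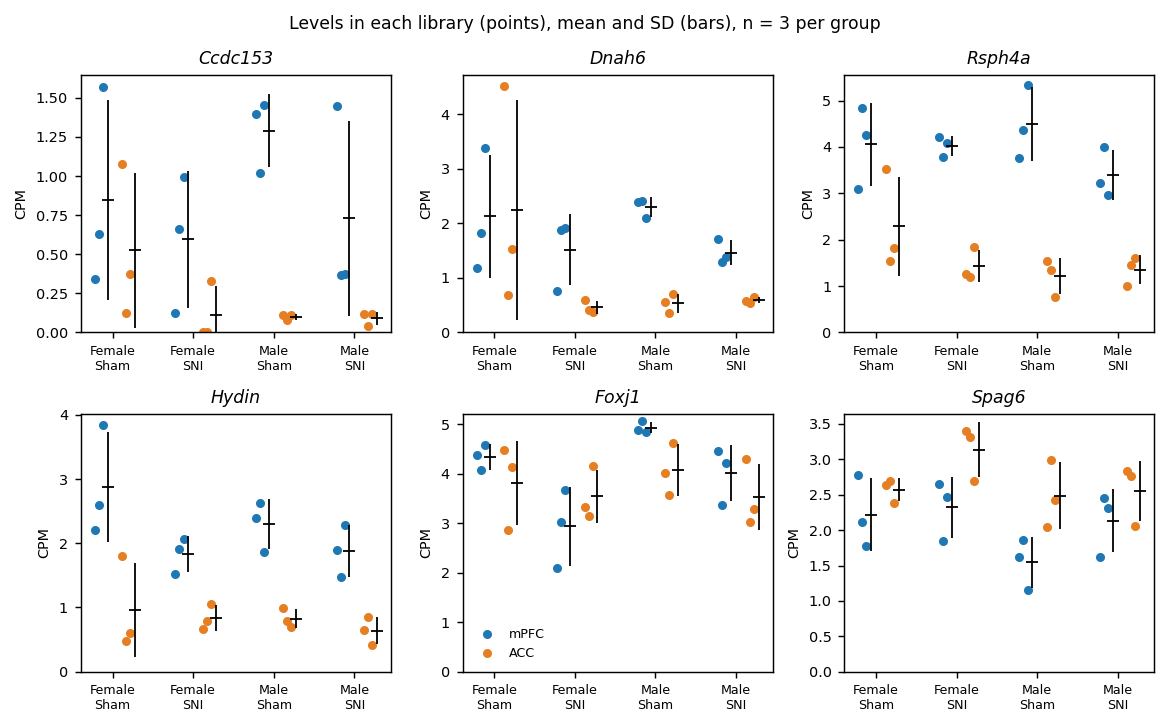
CPM of Ccdc153, Dnah6, Rsph4a, Hydin, Foxj1 and Spag6 in each library (points, mPFC blue and ACC orange), with the mean and SD of the 3 libraries of each group (black). The high orange point among sham females in the Ccdc153, Dnah6, Rsph4a and Hydin panels is ACC library 1, and the Foxj1 panel shows the regions overlapping in 3 of the 4 pairs of groups.

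Ccdc40 (chr11:119228572-119265238) forms the molecular ruler of the axoneme with Ccdc39. Females had 36, 51 and 33 reads in the sham mPFC against 24, 15 and 34 in the sham ACC, and 26, 41 and 40 against 19, 14 and 17 after SNI. Males had 47, 54 and 43 against 25, 18 and 17, and 56, 35 and 38 against 30, 20 and 15. The groups were apart in CPM in all 4 cases. The difference passed in sham males (log2 fold change 1.24 ± 0.25, adjusted p = 0.00811), SNI females (1.19 ± 0.29, adjusted p = 0.0107) and SNI males (0.82 ± 0.29, adjusted p = 0.0731), and not in sham females (0.71 ± 0.30, adjusted p = 0.116). The SNI male call was lost in 5 of the 6 fits that left out a library (0.61 to 0.90), all but that without ACC library 1.

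Zmynd10 (chr9:107547298-107551319) is a cytoplasmic factor needed to assemble dynein arms. It had 66, 63 and 62 reads in the female sham mPFC and 41, 36 and 40 in the ACC, and 40, 69 and 59 against 34, 39 and 37 after SNI. The males had 40, 55 and 59 against 41, 31 and 37 in sham mice and 69, 57 and 49 against 19, 43 and 20 in SNI mice. The regions overlapped in sham males, where the test did not pass (log2 fold change 0.48 ± 0.23, adjusted p = 0.233). It passed in sham females (0.70 ± 0.19, adjusted p = 0.0257), SNI females (0.70 ± 0.23, adjusted p = 0.0448) and SNI males (0.93 ± 0.29, adjusted p = 0.0450). The call was lost without SNI ACC library 1 or 2 or SNI mPFC library 2 in females (0.56 to 0.71) and without SNI ACC library 1 or 3 or SNI mPFC library 1 or 2 in males (0.72 to 0.89).

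Meig1 (chr2:3409043-3422648), best known from the shaping of sperm, was read 7, 14 and 15 times in the female sham mPFC, 7, 4 and 7 in the female sham ACC, 7, 10 and 24 in the female SNI mPFC and 5, 11 and 8 in the female SNI ACC. The males had 17, 11 and 15 against 2, 6 and 4 in sham mice and 15, 9 and 13 against 11, 5 and 4 in SNI mice. Its sham male difference passed (log2 fold change 1.79 ± 0.47, adjusted p = 0.0314), but was lost without ACC library 1 or mPFC library 1 or 3 (1.46 to 1.74). No sham male ACC library had 10 reads, so Meig1 entered that test only through its mPFC reads and its call is a description.

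Foxj1 (chr11:116330704-116335399), the regulator, passed in no region comparison. It was read 115, 110 and 111 times in the female sham mPFC, 112, 71 and 111 in the female sham ACC, 50, 82 and 100 in the female SNI mPFC and 100, 92 and 102 in the female SNI ACC. The males had 133, 139 and 130 against 110, 91 and 126 in sham mice and 148, 92 and 113 against 112, 79 and 86 in SNI mice. Only the sham males were apart in CPM. The log2 fold changes were 0.19 ± 0.18, 0.28 ± 0.14, -0.25 ± 0.20 and 0.18 ± 0.17 in sham females, sham males, SNI females and SNI males, with adjusted p of 0.474, 0.248, 0.428 and 0.516.

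Dnah7a (chr1:53397006-53706784) and Dnah7b (chr1:46066315-46373546) are near-identical inner arm heavy chains that share sequence with Dnah7c, which is no member, so reads between them may be split in an uncertain way. Dnah7a was read 35, 26 and 24 times in the female sham mPFC against 16, 13 and 20 in the ACC, and 34, 37 and 47 against 18, 27 and 16 in sham males. After SNI it had 20, 32 and 37 against 16, 26 and 20 in females, and 35, 30 and 30 against 18, 15 and 28 in males. The sham groups were apart in both sexes (log2 fold change 0.79 ± 0.29, adjusted p = 0.0786, and 0.93 ± 0.29, adjusted p = 0.0687), each call being lost in 5 of 6 fits that left out a library. Those calls held only without mPFC library 3 in females and without ACC library 2 in males.

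Dnah7b had more reads: 127, 81 and 116 against 102, 82 and 83 in sham females, 100, 128 and 137 against 65, 83 and 68 in SNI females, 113, 110 and 106 against 85, 55 and 52 in sham males, and 165, 112 and 94 against 65, 84 and 101 in SNI males. It passed in sham males (0.76 ± 0.19, adjusted p = 0.0260; 0.103 without mPFC library 2) and SNI females (0.86 ± 0.16, adjusted p = 0.00229). With the reads of Dnah7a, Dnah7b and Dnah7c summed, a step chosen after the data were seen, the sum was higher in the mPFC in all 4 comparisons, with log2 fold changes of 0.39 ± 0.15, 0.82 ± 0.15, 0.92 ± 0.12 and 0.52 ± 0.13 and adjusted p of 0.0888, 0.00528, 0.000251 and 0.0155.

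Spag6, a central pair gene, was the only member called lower in the mPFC, and is named here because its direction was seen to differ. Sham males had 44, 51 and 31 reads in the mPFC against 56, 76 and 66 in the ACC (log2 fold change -0.67 ± 0.23, adjusted p = 0.0985), and the call was lost without ACC library 2 or any of the mPFC libraries. Its close copy Spag6l, which is no member, had 134 to 204 reads in the mPFC (median 172) and 109 to 169 in the ACC (median 141.5), so the copies leaned opposite ways. Summed, also a step chosen after the data were seen, they differed by -0.01 ± 0.13 on the log2 scale in sham males (adjusted p = 0.989). The sum had log2 fold changes of 0.01, 0.12 and 0.12 in sham females, SNI females and SNI males.

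The other genes of the motile cilium that passed were higher in the mPFC. In 4 further lists, 85 genes of axonemal and regulatory role that are no members, 10 of 64 tested were higher in the sham female mPFC, 25 of 63 in sham males, 17 of 57 in SNI females and 16 of 60 in SNI males, with none lower. These are 15.6%, 39.7%, 29.8% and 26.7% of those tested, and the share in sham females is close to that of all genes given above. Their median log2 fold changes were 0.19, 0.44, 0.32 and 0.23. In the list of spokes, links and central pair, Rsph9, a radial spoke head gene, was higher in all 4 (0.66, 0.99, 1.04 and 0.86), and so was Rsph3b, another spoke gene (0.54, 0.50, 0.47 and 0.43). Of the regulators, Rfx3, an X-box binding factor, was called in sham males (0.35 ± 0.10, adjusted p = 0.0501), SNI females (0.36 ± 0.05, adjusted p = 0.000362) and SNI males (0.44 ± 0.05, adjusted p = 0.000164), and Trp73, a switch of multiciliated fate, in sham males (1.54 ± 0.36). Mcidas, which starts that fate, had a median count at the floor.

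The primary cilium and its transport machinery showed no common shift in the median, although more genes were called higher than lower in each comparison. Of 37 such genes, all tested, 7 were higher and 5 lower in the sham female mPFC, 6 and 0 in sham males, 4 and 1 in SNI females and 3 and 1 in SNI males, with every median within 0.04 of 0 on the log2 scale. Bbs9, of the ciliary coat complex, was among the higher (0.39 in sham females, 0.42 in sham males and 0.38 in SNI females), and Ift80, of the transport trains, among the lower in sham females (-0.35). Of 13 cytoplasmic dynein genes, which serve transport in every cell, 4 were higher and 2 lower in sham females, 2 and 0 in sham males, 2 and 2 in SNI females and 1 and 0 in SNI males. In the same order, 14%, 7.46%, 13.7% and 10.4% of all genes were called higher. The primary cilium genes called higher were above that share in sham mice and below it in SNI mice. The cytoplasmic dynein genes were above it in sham mice and near it in SNI mice.

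Markers of other cell types moved with the regions. Among 14 genes of the subventricular zone, the germinal layer beside the ependyma, 5, 3, 3 and 4 were higher in the mPFC of sham females, sham males, SNI females and SNI males and none was lower. Sox11 was among them in each (0.45, 0.35, 0.42 and 0.34), and Cd24a, which ependymal cells also carry, had 0.80 in sham males, 1.07 in SNI females and 0.59 in SNI males. The summed level of the 14 was 349 to 417 CPM in the mPFC and 344 to 383 in the ACC. Igfbpl1 had a median count at the floor over the libraries. It was among those higher in sham females (0.806 ± 0.200 CPM against 0.0869 ± 0.151, log2 fold change 3.09, adjusted p = 0.0138). There it entered the test only through its mPFC reads, so its call is a description. Of 14 striatal and septal genes, 6, 5, 6 and 4 were higher and 1, 1, 1 and 3 lower, with sums of 195 to 279 CPM against 189 to 233. Prdm12 had a median count at the floor. The dopamine receptor gene Drd1 was higher in sham males (0.98), SNI females (0.85) and SNI males (0.45), and Penk, an opioid precursor, lower in SNI females (-0.72) and SNI males (-0.64).

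Genes of 12 astrocyte markers were lower in the mPFC in 5, 6, 7 and 9 cases and higher in none, with sums of 4550 to 5380 CPM against 4923 to 5878. Of 10 meningeal fibroblast genes, 8, 7, 0 and 7 were lower and 0, 0, 2 and 0 higher (91.2 to 167 CPM against 131 to 276), and of 9 endothelial genes 4, 4, 3 and 7 were lower (341 to 408 against 403 to 464). Of 12 oligodendrocyte genes 2, 0, 11 and 10 were lower (1147 to 3991 against 2629 to 4330), of 10 microglial genes 4, 0, 2 and 1 higher (median sum 384 against 349), and of 10 neuronal genes 4, 4, 6 and 4 lower and 1, 0, 1 and 1 higher (10208 to 11580 against 11225 to 12147). The microglial counts in males, 0 and 1 of 10, were near the share of all genes called higher. Over all genes 2436 of 16746 were called lower in sham females and 1128 of 16831 in sham males. In SNI mice 2351 of 16930 were called lower in females and 1783 of 16872 in males. The oligodendrocyte counts in sham mice, 2 and 0 of 12, were near these shares. No gene of these 6 lists had a median count at the floor. The part of any of these cell types in the region difference of the members was not tested.

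Choroid plexus genes were higher in the mPFC in 0, 1, 1 and 1 cases and lower in 7, 3, 0 and 0. Outside the 2 exceptions named above, their sum was 13.4 to 22.7 CPM in both regions. In sham females 7 of 9 tested were lower in the mPFC, where ACC library 1 lies on the other side, and without that library the members' count was 10 and their median 0.74. Over all genes 1869 were then higher and 1862 lower of 17101, against 2337 and 2436 of 16746 with all libraries. Without female sham mPFC library 3 the members' count was also 10 and their median 0.14. There 3575 genes were higher and 3509 lower of 17075. Male SNI mPFC library 2 had 35 reads of Dnah6 and 10 of Ccdc153, the lowest and joint lowest of its group, and without it 10 members were called in SNI males. In that fit 1030 genes were higher and 1102 lower of 17150. In female sham ACC library 1 Dnah6 had 113 reads, Ak7 35, Dnah11 35 and Ccdc153 27.

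**Figure D4:**
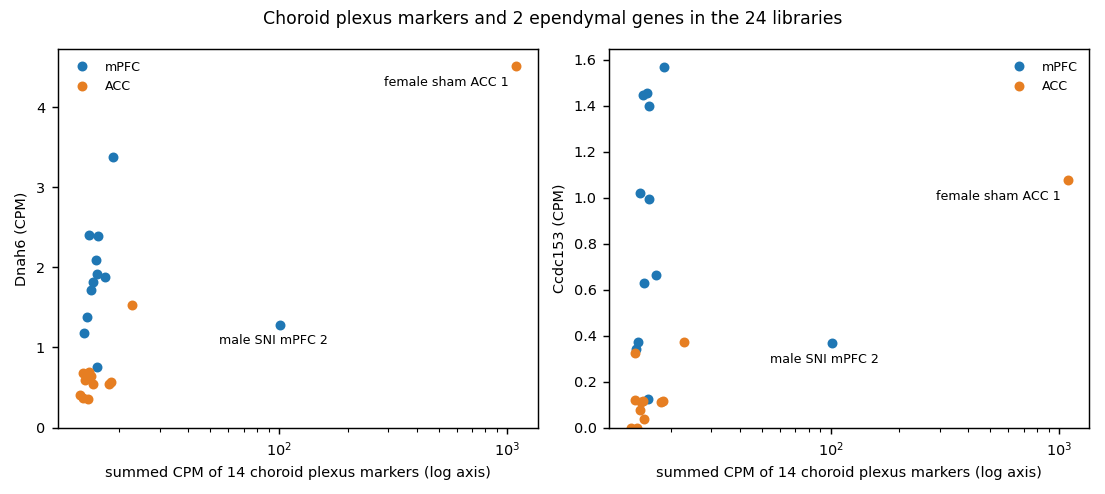
Dnah6 (left) and Ccdc153 (right) in CPM against the summed CPM of 14 choroid plexus markers on a log axis, 1 point per library. The mPFC libraries (blue) reach their high levels of both genes at choroid sums near those of the ACC (orange), except male SNI mPFC library 2, and female sham ACC library 1 is far to the right at 1090 CPM.

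The second comparison asked whether SNI changed the members. No member passed in either region or sex. In the mPFC 31 members were tested in females and 32 in males, and in the ACC 26 and 25. In each of these 4 cases edgeR's quasi-likelihood test called 0 members, and so did DESeq2. Over all genes the shares called were 0.00592% and 0.494% for the mPFC of females and males and 0.0240% and 0.00599% for the ACC. These shares rested on single libraries: without female sham mPFC library 3 the first was 15.9% (1 member called), and without male sham ACC library 3 the last was 13.5% (1 member called). Without female sham ACC library 2 the share for the female ACC was 0.800% (1 member called), and over the left-out libraries that of the male mPFC was 0.0402% to 0.730%. At an unadjusted p under 0.05 there were 5 and 3 members for the mPFC of females and males, and 5 for the female ACC, all lower after SNI. For the male ACC there were 0. Over all genes 12.1% and 11.2% (mPFC) and 6.67% and 4.48% (ACC) of females and males had such a p, so the members in the mPFC were near that share.

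The values leaned downward in 3 of the 4 tests. After SNI 23 of 31 members had a lower fitted level in females and 27 of 32 in males for the mPFC, and 22 of 26 and 12 of 25 for the ACC. The medians were -0.23, -0.27, -0.20 and 0.01 on the log2 scale, where all genes had medians between -0.01 and 0.00. Since members were read in the same libraries and may share cells, these counts are a description of the libraries. When each library was left out in turn the medians ran from -0.37 to -0.08 in the female mPFC (-0.08 without sham library 3), from -0.37 to -0.17 in the male mPFC, from -0.48 to -0.13 in the female ACC and from -0.09 to 0.08 in the male ACC. The female sham ACC includes library 1, the one with choroid plexus transcripts, where the members summed to 105 CPM. Libraries 2 and 3 of that group had 80.1 and 86.3 CPM, and the female SNI ACC 73.7 to 79.0.

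Among single members, Foxj1 was 4.34 ± 0.256 CPM in the sham and 2.94 ± 0.792 in the SNI female mPFC (SD, n = 3), every SNI library below every sham library, with a log2 fold change of -0.56 ± 0.19 and an adjusted p of 0.401. In the male mPFC Dnah6 was 2.29 ± 0.179 against 1.46 ± 0.227 CPM (-0.64 ± 0.20, adjusted p = 0.231), again without overlap. In the female ACC Dnah6 was 2.24 ± 2.01 CPM in sham and 0.459 ± 0.124 in SNI mice (-2.26 ± 0.58, adjusted p = 0.488). The sham group there contains ACC library 1, and without it the value was -1.26. Low oligodendrocyte levels moved with the mPFC values too, since 8 of 12 such genes were lower after SNI in the male mPFC and female SNI mPFC library 1 had the lowest oligodendrocyte sum and 6 members at the floor, as did male SNI mPFC library 2, with the next lowest sum. Their part in the members' values was not tested.

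**Figure D5:**
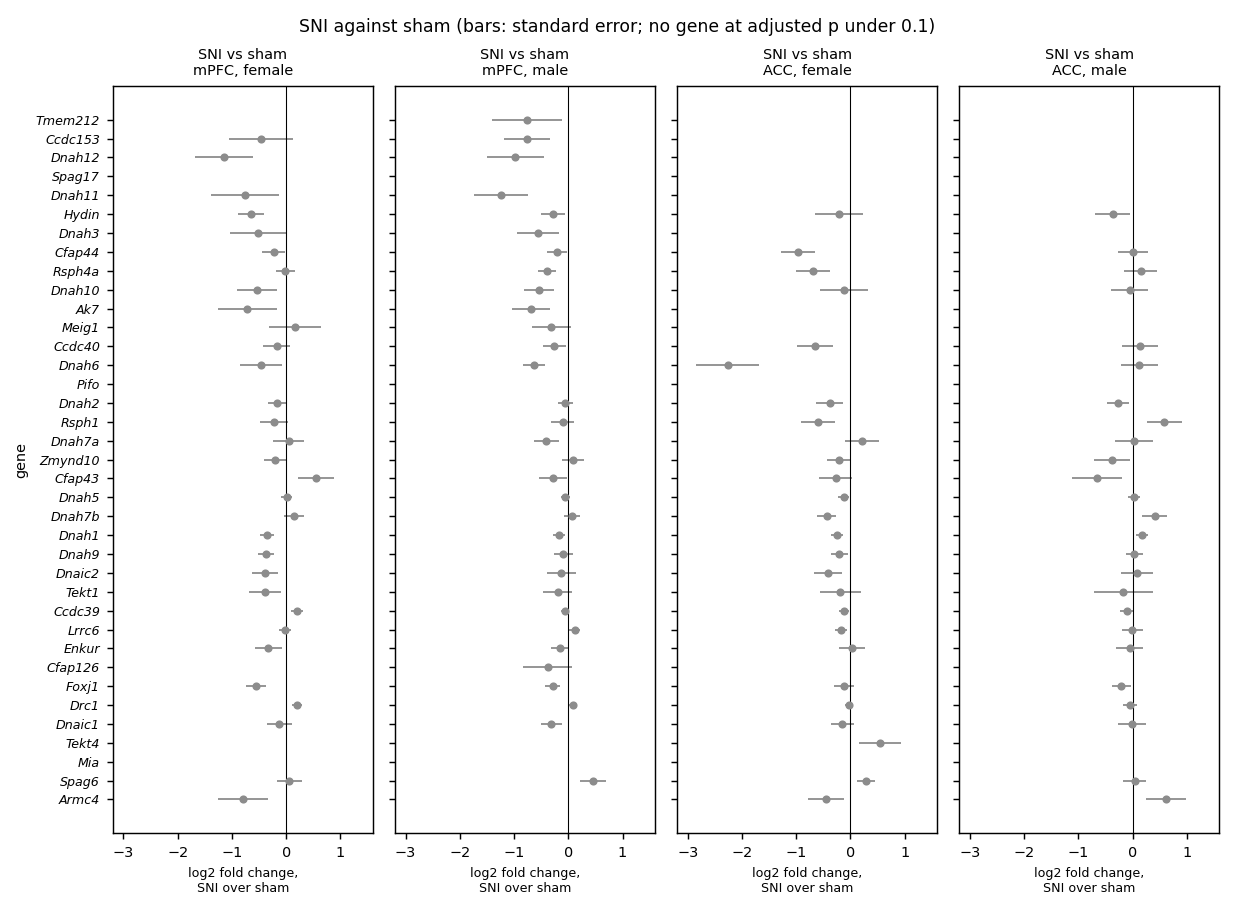
Log2 fold change of SNI over sham for each member in the female and male mPFC and ACC, with its standard error from edgeR, on 3 libraries against 3. All points are grey, since no member passed an adjusted p under 0.1. In the first 3 panels most points lie left of 0 (23 of 31, 27 of 32 and 22 of 26), and in the male ACC 12 of 25.

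Whether SNI acted differently on the members in the 2 regions was tested as an interaction. It called 0 of 33 members in females and 0 of 33 in males, where 0% of all genes were called in each, with 3 and 4 members at an unadjusted p under 0.05 (11.1% and 3.19% of all genes) and 0 members by DESeq2. The medians were 0.15 in females, which became -0.04 without female sham ACC library 1, and -0.32 in males. A difference in the SNI response between females and males was not tested.

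The third comparison set sham females against sham males. No member passed: 0 of 33 in the mPFC (0.177% of all genes called) and 0 of 26 in the ACC (0.0958%), with 1 and 8 members at an unadjusted p under 0.05 (10.6% and 6.64% of all genes). In the ACC 21 of 26 members were higher in females, with a median of 0.27, and DESeq2 called 1, Dnah6 (adjusted p = 0.0474), whose female group holds ACC library 1. Leaving out each library in turn gave medians of 0.19 to 0.56, the highest without female sham ACC library 2 and 0.25 without library 1. The region difference itself was tested between the sexes in sham mice. The interaction called 0 of 35 members (0.0115% of all genes), with 7 at an unadjusted p under 0.05 (7.29% of all genes) and 0 by DESeq2, the lowest adjusted p being 0.628. So although 9 members were called in females and 19 in males, the sexes were not shown to differ in how the regions differ.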

How the data were processed

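Raw counts of reads per gene, deposited by the authors as 1 table for each sex and region, were used as they stand. Per the processing notes of the submitters, reads were trimmed with Trimmomatic 0.36, cleared of Rfam sequences with Bowtie2, aligned to GRCm38 with HISAT2 2.1.0 and counted with HTSeq 0.9.1, and edgeR 3.34.0 is named for the comparisons. The strand setting and the annotation release are not given in the sources used here. Symbols and coordinates were taken from GENCODE on GRCm38 by Ensembl identifier.

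Groups came from the sample labels. Each comparison was fitted on its own 6 libraries, and each interaction on 12, with edgeR 4.0.16 in R 4.3.3: genes were kept by filterByExpr (minimum count 10, minimum total 15), scaled by TMM and tested with the quasi-likelihood F-test, with Benjamini-Hochberg adjustment over all genes and calls at an adjusted p under 0.1. DESeq2 1.42.0, other filters and scalings, a replicate block and leaving out each library were alternatives. The scripts were tested on simulated data. Libraries of a group differed by more than sampling noise, so none was counted as a duplicate. Each library is a pool, so p-values measure the spread between pools. Depth limits the precision of members with few reads, and intervals and floors cover counting error only.

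The members and the gene lists were chosen with earlier results of these data known. Members named with every library's value were 1 for each role, the member with the lowest adjusted p among those called between the sham regions, plus Foxj1, Dnah7a and Dnah7b. From each other list at most 3 called genes with the lowest adjusted p per comparison were named. Dnah2, Dnah5, Spag6 and the other members named were chosen after their values were seen.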

Additional observations from a re-analysis of the deposited data

Results flagged for a closer look

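Dnah1, an inner arm heavy chain, had fold changes of opposite sign after SNI in the ACC of females and males, and neither passed. It was flagged for that difference. Its log2 fold change was -0.24 in females, where 165, 165 and 133 reads after SNI stood against 164, 178 and 158 in sham mice and all 3 SNI pools were below all 3 sham pools in CPM. It was 0.17 in males, where 167, 158 and 145 reads stood against 142, 135 and 147 and all 3 SNI pools were above. The adjusted p was 0.745 in females and 0.768 in males, and the difference between the sexes was not tested.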

How the results depend on the processing

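The numbers of members called between regions were 8 in sham females, 21 in sham males, 12 in SNI females and 13 in SNI males with the replicate block, and 8, 18, 12 and 10 with DESeq2. Over all genes, in the same order, the block called 1836, 1179, 2173 and 2259 higher and 2054, 1066, 2291 and 2210 lower. DESeq2 called 2087, 1041, 1868 and 1464 higher and 2177, 1092, 1951 and 1503 lower. Both were fitted on 16746, 16831, 16930 and 16872 genes. Same-numbered libraries showed little common deviation, the lowest correlation of deviations per comparison being -0.23 to 0.03. For same-numbered mPFC and ACC libraries it ran from -0.08 to 0.15. With 3 libraries per group this cannot show whether such libraries came from the same animals, and the main fits did not pair them. Leaving out 1 library gave 6 to 10 in sham females (6 without ACC library 2 or mPFC library 2), 15 to 21 in sham males, 9 to 19 in SNI females (19 without mPFC library 1) and 9 to 12 in SNI males. Of 16995 to 17306 genes tested in these fits, 1087 to 3575, 573 to 2352, 1398 to 2599 and 1030 to 1954 were higher. The 2599 belong to the fit with 19 members. With no filter SNI females had 19 calls, 18 higher and 1 lower, where 2333 genes were higher and 2761 lower of 29294. For SNI against sham, no filter gave 1 call in the female mPFC (Foxj1), 1 in the male mPFC and 6 in the female ACC, the replicate block gave 1 in the male mPFC (Dnah11), and the likelihood ratio test gave 1 in the female ACC (Dnah6). Leaving out 1 library gave 0 to 1 in each of the 4 SNI comparisons: Ccdc39 without female sham mPFC library 3, Ccdc153 without male SNI mPFC library 1, Dnah6 without female sham ACC library 2 and Rsph1 without male sham ACC library 3. In those 4 fits 15.9%, 0.730%, 0.800% and 13.5% of all genes were called. For females against males, leaving out 1 library gave 0 to 2 in the mPFC (2 without female sham mPFC library 3), and in the ACC DESeq2 gave 1 and no filter 3. The fit with 2 members called 1150 genes higher and 1517 lower of 17176. In the ACC DESeq2 called 28 genes higher and 35 lower of 16704, and no filter 59 and 56 of 28814. The interactions gave 1, 1 and 5 calls with no filter (region by SNI in females and in males, sex by region), and 0 to 2 for the first without 1 library. With no filter 345, 50 and 108 genes were higher and 327, 78 and 167 lower, of 31109, 31446 and 31068. Without female sham mPFC library 3 the first interaction called 1050 genes higher and 1020 lower of 17821. In sham females the fold change of Ccdc153 ran from -0.088 to 1.73, that of Dnah6 from -0.56 to 0.93 (0.13 with the block) and that of Dnah11 from -0.34 to 1.78 when 1 library was left out. Summed with Spag6l, Spag6 turned to 0.0057, 0.12 and 0.12 in sham females, SNI females and SNI males. The cause of these changes was not tested.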
